A study of Mus musculus with 30 samples.

Results

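The nuclear-encoded genes of the mitochondrial respiratory chain were described in bone marrow stem and progenitor cells of mice with or without Mettl3, the catalytic subunit of the enzyme that places m6A marks on RNA. Members were taken by symbol: names starting with Nduf, Uqcr, Cox4i, Cox5, Cox6, Cox7, Cox8 or Atp5, together with Sdha, Sdhb, Sdhc, Sdhd and Cycs, leaving out pseudogenes. The rule found 93 genes among the 24063 genes of the bulk RNA-seq table, and the same 93 among the 27933 genes of the single-cell table. They comprise 36 subunits of complex I, 7 complex I assembly factors (the Ndufaf genes), 4 subunits of complex II, 8 of complex III, cytochrome c, 19 genes of complex IV, 15 of complex V, the supercomplex factor Cox7a2l, and the pair Atp5s and Atp5sl. A filter on low counts left 90 of the 93 in bulk. The 3 left out, Cox7b2, Cox8b and Cox8c, had 13, 12 and 0 reads over all 24 bulk libraries.

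Complexes I to IV of the inner mitochondrial membrane pass electrons from NADH and succinate to oxygen, and complexes I, III and IV pump protons as they do so. Complex V, the ATP synthase, uses the proton gradient to make ATP. Most subunits are encoded in the nucleus and are joined, with the help of assembly factors, to a few that are encoded in mitochondrial DNA. Blood stem cells are known for relying largely on glycolysis and for raising respiration as they differentiate.

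Mettl3KO mice carried Mx1-Cre and floxed Mettl3 alleles (Mx1-Cre; Mettl3 fl/fl), and the control mice, called WT here after the sample names, carried the floxed alleles alone (Mettl3 fl/fl). All were sampled 3 weeks after pIpC, a double-stranded RNA that switches on Mx1-Cre through interferon; Mx1-Cre acts in other tissues besides blood, and the WT mice received pIpC too. Lin-;Sca1+;c-Kit+ cells were sorted by CD150 and CD48. Multipotent progenitors were MPP1 when negative for both, MPP2 when positive for both and MPP4 when CD48+ but CD150-; stem cells (HSC) were CD150+ and CD48-. Each of the 8 groups had 3 bulk libraries, from 3 different mice. Lin-;c-Kit+ cells (LK) of 3 mice per genotype were profiled by 10x single-cell RNA-seq. Whether populations came from the same mice was not stated.

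Bulk libraries held 28893831 to 55271668 reads assigned to genes, and 10x libraries 28546967 to 44159208 molecules (UMIs) in 24396 kept cells, with a median of 5945 to 10490 UMIs per cell. Mettl3 was lower in every Mettl3KO library of every population. In HSC it stood at 14.4, 17.2 and 11.6 CPM (counts scaled to the size of the library) in Mettl3KO, against 36.5, 31.5 and 42.6 CPM in WT (log2 fold change -1.35). In MPP4 it stood at 17.7, 17.6 and 22.4 CPM in Mettl3KO, against 32.6, 34.3 and 31.5 CPM in WT (-0.77). The transcript was thus reduced but not gone, and the deposited counts do not tell which exons were read. Slamf1, which encodes CD150, was at most 4.2 CPM in the CD150- populations and at least 15.6 CPM in HSC. Cd48 reached at most 13.5 CPM in HSC and at least 135.6 CPM in MPP2. Among the 6 10x libraries, 303 of 24389 distinct cell barcodes occurred in more than 1 library. 3 bulk libraries stood apart by a low share of counts on ribosomal protein genes: Mettl3KO MPP1 replicate 3 (0.934%), Mettl3KO HSC replicate 1 (1.45%) and WT HSC replicate 2 (1.09%). All other libraries were at 1.67% or more. Respiratory chain genes are short (median transcript 870 bases for the 92 members with a length, against 2570 over 21923 protein-coding genes), and the same 3 libraries had the lowest summed member level: 5428, 7308 and 5979 CPM. The part of RNA quality or library chemistry in this was not tested.

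**Figure D1:**
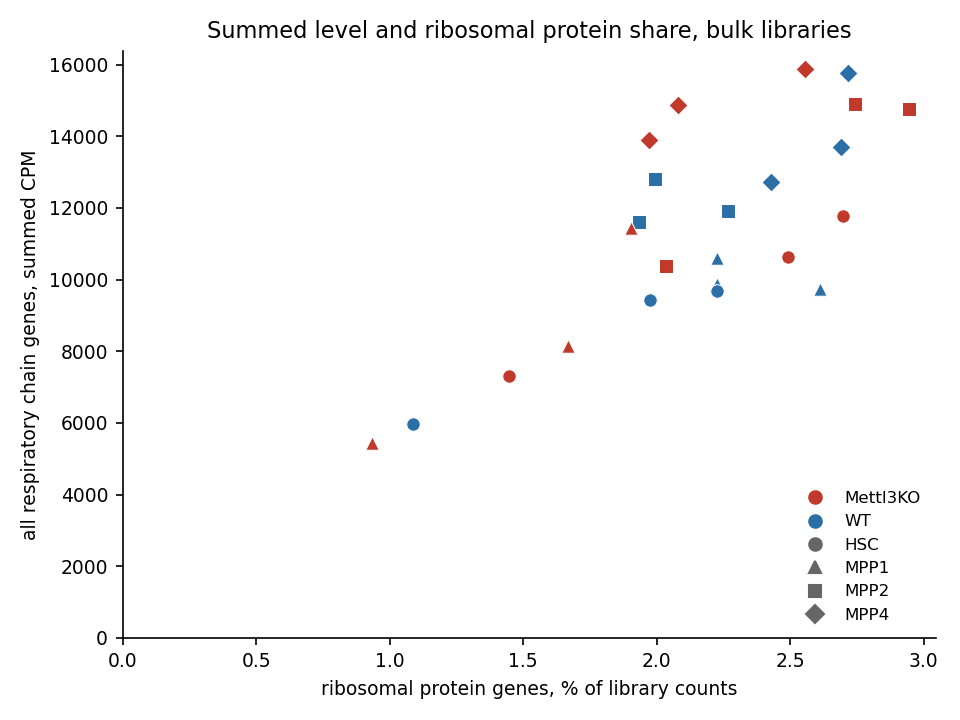
Summed level of the respiratory chain genes (CPM, y axis) against the share of library counts on ribosomal protein genes (%, x axis) in the 24 bulk libraries; red is Mettl3KO, blue is WT, and the marker shape gives the population. The 3 libraries at the lower left have sums of 5428 to 7308 CPM, and the highest library has 15860 CPM.

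Levels per gene length were compared first, as the mean CPM per kb over the 24 bulk libraries. Cox4i1, a regulatory subunit of cytochrome c oxidase (complex IV), was the highest at 832 CPM per kb, and Atp5b, the catalytic beta subunit of ATP synthase, followed at 556. Uqcrfs1, the Rieske iron-sulphur protein of complex III, was at 109.6 CPM per kb. The assembly factors Ndufaf1 and Ndufaf4 were at 23.96 and 12.5, and Cycs, the electron carrier cytochrome c, at 12.5. The values of Ndufaf4 and Cycs rest on long transcripts of 3632 and 3123 bases. By 10x UMIs, Cycs did not stand beside the assembly factors. In WT HSC/MPP-like cells it averaged 277 CPM of UMIs, against 212 for Uqcrfs1, 62.3 for Ndufaf4 and 30.7 for Ndufaf1. Genes with tissue isoforms were represented mostly by the widely expressed form. Cox6a1 was at 341 CPM per kb and Cox6a2, the heart and skeletal muscle form, at 5.43. Ndufa4 was at 298 and Ndufa4l2 at 0.18; Cox7a2 was at 127 and Cox7a1, another muscle form, at 0.97. Cox6b2, known as the testis form, did not follow this pattern: it was at 186 CPM per kb, beside 253 for Cox6b1. The 10x libraries, whose UMI counts are not per length, did not show this near parity: in WT HSC/MPP-like cells, Cox6b2 averaged 83.5 ± 11.4 CPM of UMIs and Cox6b1 590 ± 23.2 CPM (SD, n = 3). In whole WT LK cells, Cox6b2 averaged 205 CPM and Cox6b1 977 CPM. The causes of these differences between the assays were not tested.

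In WT mice, respiratory chain transcripts were higher in MPP4 (CD48+ and CD150-) than in HSC. Of the 90 members tested, 25 rose and 0 fell at an adjusted p under 0.05 (edgeR quasi-likelihood test, Benjamini-Hochberg over all genes); of the 15545 genes tested, 6.65% rose and 5.4% fell. The median log2 fold change was 0.89 over the members and -0.04 over all genes. In 78 of the 90 every WT MPP4 library was above every WT HSC library, an arrangement seen in 21.3% of all genes. The rise was spread over 9 of 36 complex I subunits, 2 of 4 of complex II, 2 of 8 of complex III, 5 of 16 of complex IV, 6 of 15 of complex V and cytochrome c, but over 0 of 7 complex I assembly factors, whose median was 0.47.

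Cycs had 59.5, 47.0 and 51.6 CPM in WT MPP4, against 25.3, 13.8 and 26.5 CPM in WT HSC (log2 fold change 1.27 ± 0.29, SE; adjusted p = 0.0088). Ndufa4, a small subunit now assigned to complex IV, had 404, 262 and 287 CPM in WT MPP4, against 131, 66.2 and 115 CPM in WT HSC (1.61 ± 0.37; adjusted p = 0.0089). Sdhb, the iron-sulphur subunit of succinate dehydrogenase (complex II), had 254, 191 and 200 CPM in WT MPP4, against 124, 72.0 and 134 CPM in WT HSC (0.97 ± 0.23; adjusted p = 0.012). For all 3 genes the groups did not overlap, and WT HSC replicate 2 was the lowest library. Atp5b rose less, by 0.50 ± 0.12 (adjusted p = 0.012), with 1276, 1160 and 1078 CPM in WT MPP4, against 908, 708 and 870 CPM in WT HSC. Other members that rose included Cox5a (1.29) and Cox4i1 (1.12) of complex IV, Ndufa1 (1.45) and Ndufb8 (1.13) of the complex I membrane arm, Uqcrq (1.27) and Uqcrfs1 (0.75) of complex III, and the ATP synthase genes Atp5j2 (1.16), Atp5g1 (1.06) and Atp5g3 (1.00). Sdha, the flavoprotein of complex II, and Ndufs1, the large iron-sulphur subunit of complex I, had log2 fold changes of 0.01 and -0.04 and did not pass. Cox6a2 had 0 reads in all 3 WT HSC libraries and 633, 258 and 205 reads in WT MPP4, at least 481-fold higher when 3 counts over the HSC group are taken as the limit.

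WT MPP2, CD150+ like HSC, was in between: 2 members rose and 0 fell, where 2.51% of all genes rose and 1.4% fell (3.91% in all), and the median was 0.54. The 2 were Atp5b, with 1231, 1153 and 1222 CPM in WT MPP2 (0.54 ± 0.12; adjusted p = 0.016), and Cox6a2, with 180, 169 and 252 reads (at least 215-fold higher than in WT HSC). Cox6a2, with 0 reads in WT HSC, passed the count filter only through groups where it was high. Its calls here and in WT MPP4 thus add no support to the member counts. In 63 of 90 members the MPP2 libraries were all above the HSC libraries, against 18.3% of all genes. WT MPP1 had 0 members called (4 at an unadjusted p under 0.05, and 0 called with DESeq2), beside 0.0257% of all genes called in either direction; its member median was 0.30. These comparisons share the WT HSC libraries. Without WT HSC replicate 2, which had a low ribosomal share, the MPP4 count was 1 and the median 0.61, and the MPP2 count was 1. Without MPP4 replicate 1 the MPP4 count was 2, and without replicate 2 or 3 it was 9. Removing each library's trend with transcript length and GC content left 12 calls and a median of 0.36. Markers of B cells moved the same way: 12 of 12 rose. Their sum was 3879 to 6266 CPM in WT MPP4 and 360 to 566 CPM in WT HSC, where Ms4a1 was at 0. Neutrophil markers (2856 to 6664 CPM in WT MPP4, 120 to 1854 CPM in WT HSC) and T and NK cell markers (413 to 524 and 79.8 to 108 CPM) were higher too. Erythroid markers were lower (672 to 687 and 1061 to 1441 CPM), as were endothelial markers (119 to 167 and 237 to 307 CPM). In WT MPP2, B cell markers summed to 1948 to 2588 CPM, neutrophil markers to 3677 to 9205 CPM and macrophage markers to 763 to 9138 CPM (303 to 528 CPM in WT HSC). The part of these markers in the results was not tested. In sorted bulk cells, fewer cells of a type and less RNA per cell cannot be told apart.

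**Figure D2:**
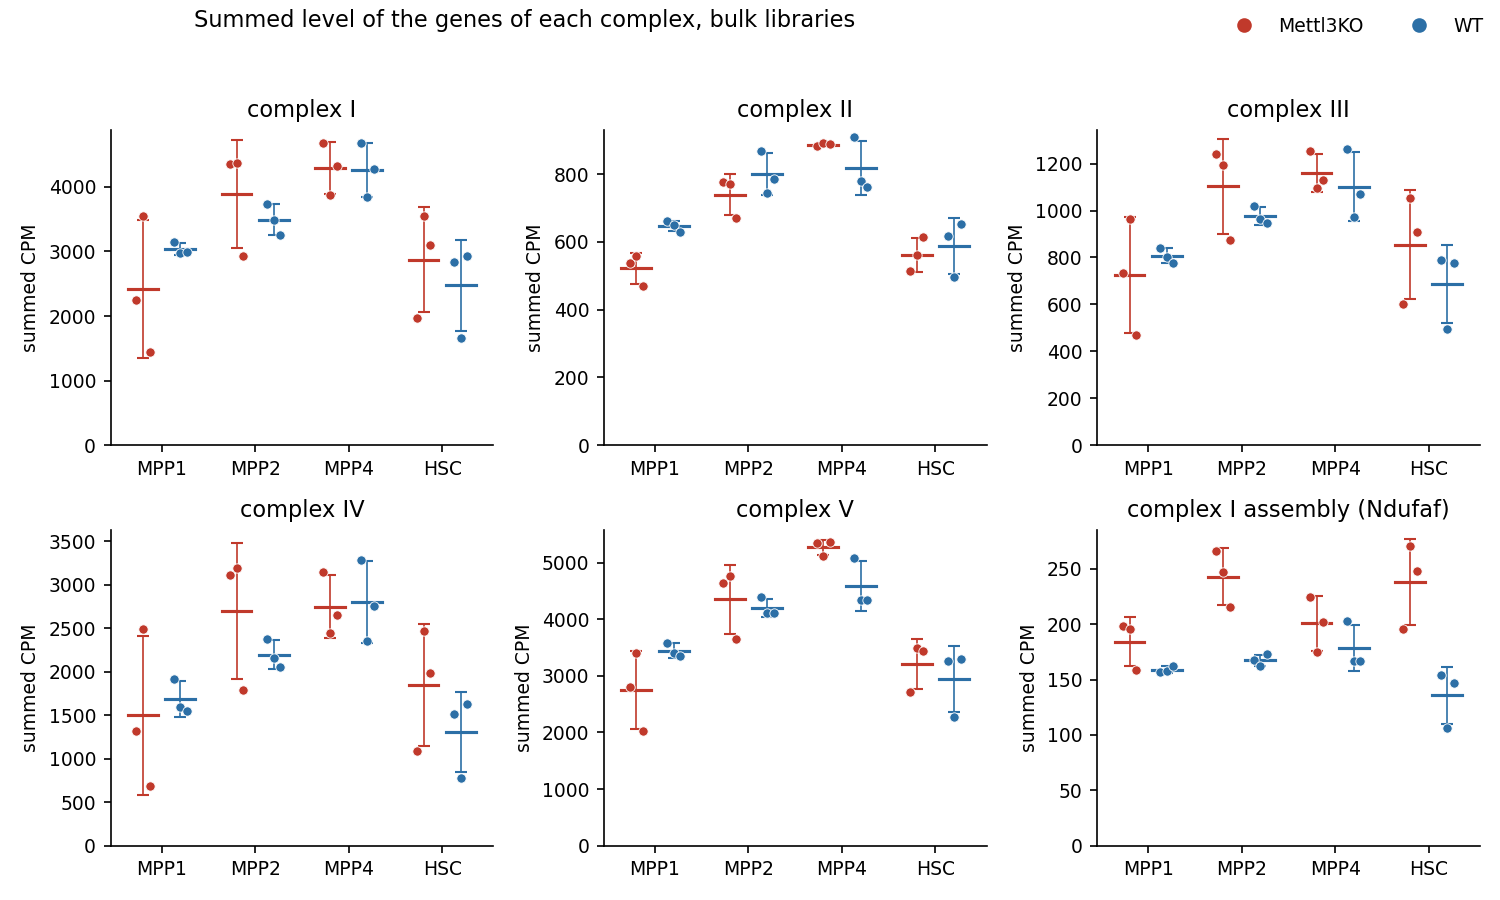
Summed CPM of the members of each complex in the bulk libraries, by population; points are libraries, bars are means and error bars are SD (n = 3), with Mettl3KO in red left of WT in blue. For the complex I assembly factors the Mettl3KO HSC libraries lie between 195.6 and 270.9 CPM, above the WT HSC libraries at 106.5 to 154.1 CPM. Of these factors only Ndufaf1 and Ndufaf4 were called in HSC.

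Loss of Mettl3 in HSC was followed by higher transcript levels of 3 members, 2 of them complex I assembly factors. Of 90 members, 3 rose and 0 fell, which is 3.33% and close to the background: 3.66% of all genes rose and 2.49% fell. The member median was 0.34 (all genes 0.00), with 78 of 90 positive; it was positive under every alternative and leave-one-out, between 0.09 and 0.58. Groups did not overlap in 3 members that were higher and 2 that were lower, against 12.1% and 12% of all genes. The complex I assembly factors had a median of 0.49 with 7 of 7 positive, complex III 0.56, complex IV 0.50, complex I 0.27, complex V 0.20 and complex II 0.02. The 7 assembly factors summed to 238.0 ± 38.6 CPM in Mettl3KO HSC and 135.7 ± 25.5 CPM in WT HSC (SD, n = 3 each). These sums did not overlap, but they hold the called genes Ndufaf1 and Ndufaf4. Ndufaf1 averaged 56.2 CPM in Mettl3KO HSC and 24.1 CPM in WT HSC, and Ndufaf4 73.6 and 30.7 CPM. For Ndufaf2, Ndufaf3, Ndufaf5, Ndufaf6 and Ndufaf7 the groups overlapped, and none was called.

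Ndufaf1 (chr2:119655446-119662827, minus strand, 5 exons, GRCm38), which helps build the membrane arm of complex I, had 49.9, 60.4 and 58.2 CPM in Mettl3KO HSC, against 24.1, 25.4 and 22.7 CPM in WT HSC. The log2 fold change was 1.22 ± 0.19 (edgeR adjusted p = 4.8e-04). Ndufaf4 (chr4:24898083-24905001, plus strand, 3 exons), another early assembly factor of complex I, had 64.3, 89.4 and 67.2 CPM in Mettl3KO HSC, against 32.1, 24.5 and 35.6 CPM in WT HSC (1.26 ± 0.20; adjusted p = 5.8e-04). For both genes all Mettl3KO libraries were well above all WT libraries, those of low ribosomal share included, and both were called under every alternative and with any library left out. Uqcrfs1 (chr13:30540308-30545362, minus strand, 2 exons) had 132, 201 and 194 CPM in Mettl3KO HSC, against 108, 62.8 and 107 CPM in WT HSC (0.92 ± 0.20; adjusted p = 0.0085). Its lowest library in each group was that of low ribosomal share, and it was not called when the fit held the 6 HSC libraries alone (adjusted p = 0.10). Without the 3 libraries of low ribosomal share, 6 members were called.

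The other core subunits did not pass in HSC. Sdha had 222, 145 and 174 CPM in Mettl3KO HSC, against 228, 253 and 254 CPM in WT HSC (-0.44 ± 0.16; adjusted p = 0.12); its groups did not overlap, as for Atp5a1, the alpha subunit of ATP synthase (-0.21 ± 0.11; adjusted p = 0.30). Cycs (0.42), Cox5a (0.59), Cox4i1 (0.48), Ndufs1 (-0.21) and Uqcrc1, a core subunit of complex III (-0.31), were uncalled as well, with adjusted p between 0.25 and 0.57.

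The 250 bases upstream of the start of both assembly factor genes are shown with that of Sdhb. As classes, HSC/MPP-like and megakaryocyte progenitor-like cells had both factors risen and Sdhb fallen. In sorted HSC, Sdhb was uncalled (0.06). They come from RefSeq (GRCm38.p6) and run 5′ to 3′ along the gene's strand. Capitals mark matches on either strand to the motifs of NRF1 (GCGCATGC), the ETS factors (CCGGAAG), YY1 (AAGATGGC) and SP1 (GGGCGG), factors known to act at promoters of respiratory genes.
Ndufaf1 (chr2:119662835-119663084, minus strand): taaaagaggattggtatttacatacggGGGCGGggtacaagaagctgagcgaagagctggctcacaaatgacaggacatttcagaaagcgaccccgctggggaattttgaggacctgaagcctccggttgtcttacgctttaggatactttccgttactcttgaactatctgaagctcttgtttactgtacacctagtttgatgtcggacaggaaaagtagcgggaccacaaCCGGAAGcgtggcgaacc
Ndufaf4 (chr4:24897833-24898082, plus strand): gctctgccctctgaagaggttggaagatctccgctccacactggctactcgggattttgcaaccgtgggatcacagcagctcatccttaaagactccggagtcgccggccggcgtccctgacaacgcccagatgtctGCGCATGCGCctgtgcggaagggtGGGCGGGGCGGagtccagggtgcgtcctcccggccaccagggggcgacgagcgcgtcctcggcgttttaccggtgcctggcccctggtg
Sdhb (chr4:140961021-140961270, plus strand): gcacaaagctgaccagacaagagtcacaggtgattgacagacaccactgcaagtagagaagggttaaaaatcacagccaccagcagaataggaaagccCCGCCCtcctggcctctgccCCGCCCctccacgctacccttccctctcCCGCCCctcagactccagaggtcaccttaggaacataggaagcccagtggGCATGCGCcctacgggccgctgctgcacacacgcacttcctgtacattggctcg
The Ndufaf1 stretch holds SP1 and ETS matches. That of Ndufaf4 holds 2 overlapping NRF1 matches and 2 SP1 matches, and that of Sdhb 3 SP1 matches and an NRF1 match. The part of these matches in the changes was not tested.

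In MPP1 the picture was reversed in sign and less stable. 1 member rose and 3 fell, beside 4.74% of all genes that rose and 3.89% that fell (8.63% in all); the median was -0.25, and 12 members had all Mettl3KO libraries below all WT libraries (all genes 12.2%), against 1 above (10.1%). Ndufaf4 rose here too, with 67.5, 44.0 and 45.8 CPM in Mettl3KO MPP1, against 36.6, 32.4 and 30.4 CPM in WT MPP1 (0.66 ± 0.20; edgeR adjusted p = 0.043), a call lost in 7 of 14 alternatives, leaving out any WT library among them. Ndufv1, the flavoprotein of complex I that oxidises NADH, fell to 87.8, 70.3 and 66.9 CPM in Mettl3KO MPP1, against 122, 113 and 106 CPM in WT MPP1 (-0.60 ± 0.15; adjusted p = 0.020). Uqcrc2, a core subunit of complex III, fell by 0.53 on the log2 scale (adjusted p = 0.027) and Atp5a1 by 0.44 (adjusted p = 0.019). The Mettl3KO MPP1 libraries differed strongly among themselves: replicate 2 had a summed neutrophil marker level of 76853 CPM, against 1061 and 216 CPM in the other Mettl3KO libraries and 882 to 4923 CPM in WT, and replicate 3 was the library of lowest ribosomal share. Their member sums were 8158, 11440 and 5428 CPM, against 9746 to 10600 CPM in WT. Without replicate 2 there were 14 calls (2 up, 12 down) and a median of -0.70. Without replicate 3 the median was 0.01. Leaving out WT replicate 2 gave 0 calls, leaving out WT replicate 1 or 3 gave 1, and the 6 MPP1 libraries alone gave 0. The part of the neutrophil RNA in these values was not tested.

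In MPP2, Ndufaf4 was the only member called, beside 1.51% of all genes that rose and 0.965% that fell (2.47% in all). It had 74.0, 66.5 and 59.3 CPM in Mettl3KO MPP2, against 31.3, 31.0 and 34.1 CPM in WT MPP2 (1.05 ± 0.20; edgeR adjusted p = 0.0067), and was called under every alternative tried. Ndufaf1 had 52.8, 40.4 and 49.1 CPM in Mettl3KO MPP2, against 27.6, 31.0 and 28.8 CPM in WT MPP2 (0.70; adjusted p = 0.051). Uqcrfs1 stood at 227, 198 and 169 CPM in Mettl3KO MPP2, against 141, 130 and 131 CPM in WT MPP2 (0.56; adjusted p = 0.16). Groups did not overlap for any of the 3, but only Ndufaf4 passed. The summed assembly factors were 242.9 ± 25.7 CPM in Mettl3KO MPP2 and 167.6 ± 5.0 CPM in WT MPP2 (SD, n = 3 each). The member median was 0.30. Sdha was lower in all 3 Mettl3KO libraries, at 182, 178 and 219 CPM against 274, 260 and 292 CPM in WT MPP2 (-0.51; adjusted p = 0.11).

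In MPP4, 0 of 90 members were called by edgeR (5 at an unadjusted p under 0.05; 2 called by DESeq2), beside 1.03% of all genes that rose and 2.1% that fell (3.13% in all), and the median was 0.04. Ndufaf4 had 49.6, 34.5 and 42.1 CPM in Mettl3KO MPP4, against 39.0, 32.7 and 30.1 CPM in WT MPP4 (0.31; adjusted p = 0.47). Cox6b2 had 94.2, 55.3 and 52.6 CPM in Mettl3KO MPP4, against 180, 111 and 132 CPM in WT MPP4 (-1.07 ± 0.37; adjusted p = 0.14), with no overlap. Atp5a1 had 964, 1054 and 1077 CPM in Mettl3KO MPP4, against 894, 777 and 726 CPM in WT MPP4 (0.37; adjusted p = 0.080).

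Whether the effect differed between populations was tested directly. Of 90 members, 0 were called for MPP1 minus HSC, MPP2 minus HSC or MPP4 minus HSC (8, 0 and 8 at an unadjusted p under 0.05; 0, 0 and 3 called by DESeq2), beside 0.0386%, 0.00643% and 1.55% of all genes called in either direction (for MPP4 minus HSC, 0.611% up and 0.939% down). For MPP4 minus HSC the difference was -0.95 ± 0.26 for Ndufaf1 (edgeR adjusted p = 0.077), -0.95 ± 0.28 for Ndufaf4 (adjusted p = 0.091) and 0.58 ± 0.16 for Atp5a1 (adjusted p = 0.068). For MPP1 minus HSC, Uqcrfs1 had the lowest unadjusted p, with a difference of -0.96 ± 0.29 (adjusted p = 0.37). The populations were thus not shown to differ for any single member. These contrasts share the HSC libraries.

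**Figure D3:**
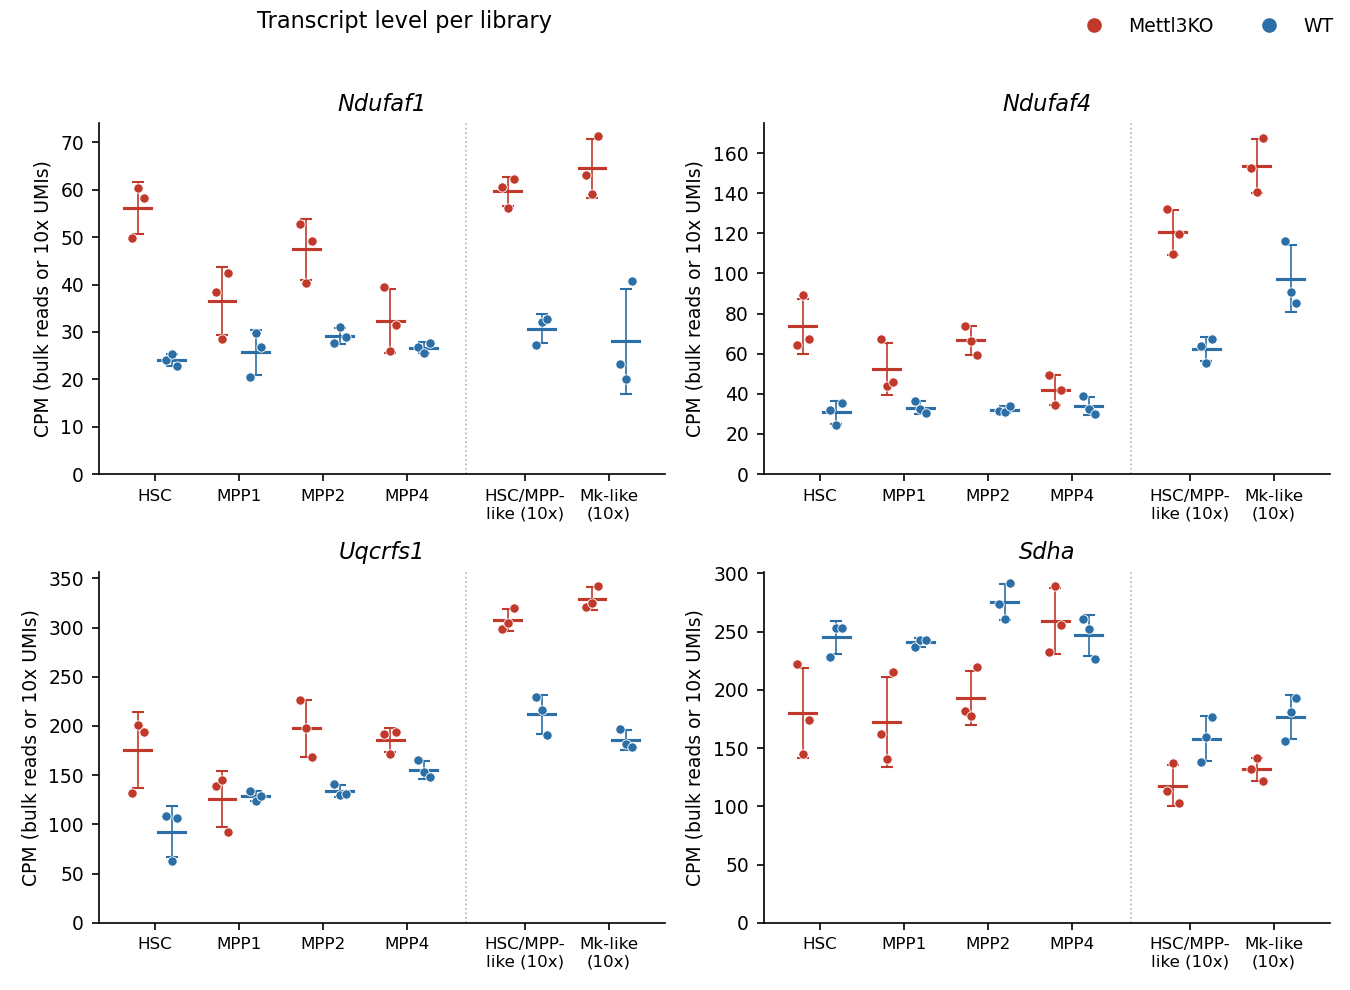
CPM of Ndufaf1, Ndufaf4, Uqcrfs1 and Sdha in each library, with bulk populations left of the dotted line and 10x classes right of it (Mk-like is megakaryocyte progenitor-like); points are libraries, bars are means and error bars are SD (n = 3). Mettl3KO (red) lies above WT (blue) without overlap for Ndufaf1 and Ndufaf4 in HSC and in both 10x classes, while Sdha lies below in both classes.

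In whole LK cells, which hold mostly committed progenitors, the respiratory chain genes moved little and mostly downwards. Of 89 members tested, 4 rose and 9 fell, beside 13.7% of all genes that rose and 8.72% that fell. The median was -0.13 with 75 of 89 negative; 46 members had all Mettl3KO libraries below all WT libraries (all genes 19.5%) and 5 above (22.0%). Cox6b2 fell to 79.0, 98.8 and 104 CPM of UMIs in Mettl3KO LK, against 178, 221 and 215 CPM in WT LK (-1.12 ± 0.12; edgeR adjusted p = 0.0012). Cox7a1, a gene of few UMIs, had 3.17, 4.49 and 3.64 CPM in Mettl3KO LK, against 2.06, 1.56 and 1.64 CPM in WT LK (1.09 ± 0.18; adjusted p = 0.0051). Ndufaf4 had 97.8, 95.4 and 94.3 CPM in Mettl3KO LK, against 84.7, 79.1 and 76.9 CPM in WT LK (0.26 ± 0.06; adjusted p = 0.017), a call lost without Mettl3KO replicate 1 or 3 or WT replicate 2 or 3. Cox4i2 (0.55), known as the lung form of Cox4, and Atp5sl (0.27) rose too. The members that fell, besides Cox6b2, were 6 complex I subunits, namely Ndufv1 (-0.32), Ndufa1 (-0.31), Ndufb11 (-0.23), Ndufa10 (-0.23), Ndufb3 (-0.22) and Ndufb2 (-0.21), with Uqcrc1 (-0.27) of complex III and Atp5h (-0.23), a stalk subunit of ATP synthase. Cox6b2 and Cox7a1 were called under every alternative. The number called fell to 2 without Mettl3KO replicate 1, 3 without Mettl3KO replicate 3, 3 without WT replicate 2 and 7 without WT replicate 1.

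The mix of cells differed between the genotypes. B cell markers (11 of 12 risen) summed to 1860 to 3240 CPM in Mettl3KO LK and 512 to 876 CPM in WT LK, and erythroid markers (10 of 12 fallen) to 1281 to 2142 CPM in Mettl3KO and 3504 to 4763 CPM in WT. The summed members were 36200 CPM (34680 to 37100) in Mettl3KO LK and 39660 CPM (38960 to 40180) in WT LK. The mitochondrially encoded genes, which the bulk table does not hold, summed to 31650 CPM (30550 to 33720) in Mettl3KO LK and 37050 CPM (35900 to 38090) in WT LK; 3 of 13 fell (mt-Nd4, mt-Atp6 and mt-Cytb) and the list's median was -0.21. Neutrophil markers (3 of 11 fallen) summed to 8441 to 12769 CPM in Mettl3KO LK, against 17695, 14902 and 102046 CPM in WT LK, where replicate 3 stood apart; it held 1049 neutrophil-like cells, the other libraries 12 to 98. Without it, 9 members were called. Of 4239, 2946 and 4866 kept cells in the Mettl3KO libraries, 1142, 437 and 939 were HSC/MPP-like. In the WT libraries 269, 242 and 251 of 4483, 3514 and 4348 were. Within this class the summed members were 27483, 29322 and 27894 CPM in Mettl3KO, against 26913, 26364 and 25637 CPM in WT. These sums were the lowest among the 8 classes tested. The part of these markers and of the cell mix in the whole LK values was not tested. Changes within cell classes are given next. Cells were clustered without the member genes, and classes were named from marker lists.

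In HSC/MPP-like cells (437 to 1142 cells per Mettl3KO library and 242 to 269 per WT library), 12 of 88 members rose and 4 fell, beside 12.6% of all genes that rose and 10.2% that fell (22.9% in all), so the share that rose was near the background. The median was 0.06, and 26 members had all Mettl3KO libraries above all WT libraries (all genes 20.6%) and 10 below (17.8%). Ndufaf1 had 60.6, 56.2 and 62.2 CPM in Mettl3KO, against 27.1, 32.0 and 32.8 CPM in WT (0.97 ± 0.14; edgeR adjusted p = 1.3e-04). Ndufaf4 had 132, 110 and 120 CPM in Mettl3KO, against 63.8, 55.5 and 67.6 CPM in WT (0.96 ± 0.12; adjusted p = 4.5e-05). Uqcrfs1 had 299, 305 and 320 CPM in Mettl3KO, against 229, 216 and 190 CPM in WT (0.53 ± 0.09; adjusted p = 7.5e-04). The 3 members called in sorted HSC were also called in this class of the 10x libraries, where all 3 held under every alternative. The class was held mostly by different clusters in Mettl3KO and WT, as given below. It therefore does not repeat the comparison of sorted HSC.

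Small subunits and the supercomplex factor joined them: Cox7a2l (0.45), which links complexes III and IV, Uqcr10 (0.44) and Uqcrq (0.36) of complex III, Cox8a (0.43), Cox6c (0.36) and Cox7c (0.31) of complex IV, Ndufv3 (0.39) and Ndufa12 (0.37) of complex I and Atp5e (0.37) of complex V. Of the 4 complex II genes, 2 fell. Sdhb fell to 174, 189 and 170 CPM in Mettl3KO, against 228, 228 and 232 CPM in WT (-0.37 ± 0.09; adjusted p = 0.0072), and Sdha to 113, 137 and 103 CPM in Mettl3KO, against 138, 160 and 177 CPM in WT (-0.43 ± 0.12; adjusted p = 0.019). Its membrane anchors Sdhc (0.06) and Sdhd (0.11) were uncalled. Ndufa4 fell as well, to 668, 782 and 631 CPM in Mettl3KO, against 1010, 861 and 924 CPM in WT (-0.43 ± 0.10; adjusted p = 0.0056), and so did Ndufb4 (-0.28). Neutrophil markers were lower beside these changes: 6 of 6 tested fell, with a sum of 307.6 to 434.4 CPM in Mettl3KO and 669 to 2823 CPM in WT. T and NK cell markers summed to 143 to 184 CPM in Mettl3KO and 267 to 301 CPM in WT, with no overlap; of the 3 tested, 1 rose (Thy1) and 2 fell (Lck and Nkg7). The part of these markers in the result was not tested.

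In megakaryocyte progenitor-like cells (156 to 334 cells per Mettl3KO library and 142 to 177 per WT library), 7 of 86 members rose and 18 fell, beside 16.4% of all genes that rose and 13.3% that fell; the median was -0.05. Groups did not overlap in 13 members that were higher (all genes 22.8%) and 26 that were lower (19.7%). Ndufaf1 had 63.2, 59.0 and 71.3 CPM in Mettl3KO, against 23.3, 20.2 and 40.7 CPM in WT (1.22 ± 0.19; edgeR adjusted p = 5.5e-05). Uqcrfs1 had 320, 325 and 343 CPM in Mettl3KO, against 197, 182 and 179 CPM in WT (0.82 ± 0.10; adjusted p = 2.2e-06). Cox7a2l had 615, 599 and 735 CPM in Mettl3KO, against 424, 436 and 319 CPM in WT (0.73 ± 0.12; adjusted p = 7.9e-05). Ndufaf4 (0.66), Uqcr10 (0.42), Cox8a (0.31) and Ndufa12 (0.30) rose too, as in HSC/MPP-like cells.

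The 18 that fell held 8 complex I subunits, 2 of complex II, 1 of complex III, 1 of complex IV, 5 of complex V and cytochrome c. Ndufb10, a membrane arm subunit of complex I, fell to 191, 180 and 202 CPM in Mettl3KO, against 294, 291 and 278 CPM in WT (-0.59 ± 0.09; adjusted p = 8.5e-05). Sdhb fell to 181, 175 and 181 CPM in Mettl3KO, against 249.1, 256 and 246 CPM in WT (-0.48 ± 0.09; adjusted p = 5.6e-04). Cycs fell to 319, 338 and 285 CPM in Mettl3KO, against 432, 387 and 475 CPM in WT (-0.46 ± 0.10; adjusted p = 0.0017). For Ndufb10 and Sdhb the groups were far apart relative to their spread. For Cycs they did not overlap but lay closer relative to their spread. The complex I subunits Ndufs8 (-0.51), Ndufv2 (-0.46) and Ndufv1 (-0.43) fell, as did Uqcrc1 (-0.45), Sdha (-0.43) and Cox7b (-0.42). So did the ATP synthase genes Atp5o (-0.40), Atp5g1 (-0.39), Atp5c1 (-0.38), Atp5a1 (-0.32) and Atp5f1 (-0.27). Without Mettl3KO replicate 1, 15 members were called. T and NK cell markers summed to 104 to 164 CPM in Mettl3KO and 424 to 451 CPM in WT (1 of 1 tested fell, Nkg7), and neutrophil markers to 259 to 524 CPM in Mettl3KO and 447 to 4236 CPM in WT, highest in WT replicate 3 (4 of 6 tested fell). Their part in the result was not tested; without WT replicate 3, 24 members were called.

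**Figure D4:**
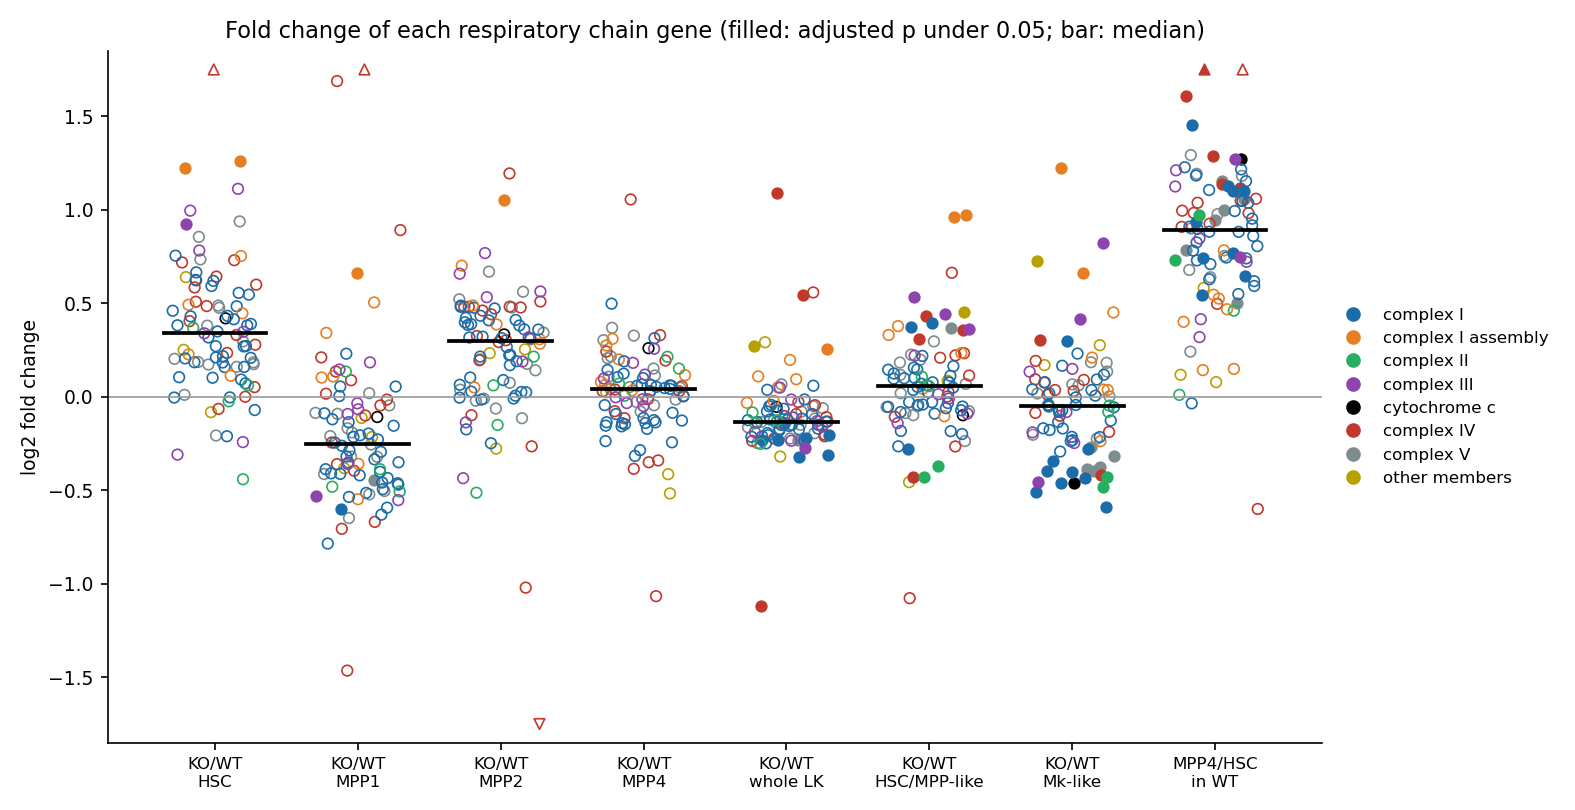
Log2 fold change of every tested member in 8 comparisons, coloured by complex; filled points passed an adjusted p of 0.05, black bars are medians, and triangles at the edge stand for values beyond the axis (rarely detected Cox6a2 and Ndufa4l2). The medians run from -0.25 (Mettl3KO over WT in MPP1) to 0.89 (MPP4 over HSC in WT), and called genes lie on both sides of 0 in the HSC/MPP-like and Mk-like (megakaryocyte progenitor-like) cells.

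Different clusters held most of these classes in the 2 genotypes. HSC/MPP-like cells comprised cluster 5, with 2190 Mettl3KO and 18 WT cells, and cluster 4, with 328 Mettl3KO and 744 WT cells. The genes most raised over all other cells were Ltb, Mycn, Serpina3g, Ifitm1, Gimap1, Gng11 and Mecom in cluster 5. In cluster 4 they were Wfdc17, Myl10, Flt3, Gm5111, Dntt, Hlf and Il12a. Megakaryocyte progenitor-like cells comprised cluster 7, with 753 Mettl3KO cells and 1 WT cell, and cluster 17, with 54 Mettl3KO and 477 WT cells. Levels by cluster are given as a description, in CPM of each library's total within the cluster. In cluster 7 the Mettl3KO libraries had 64.8, 62.6 and 69.9 CPM of Ndufaf1. In cluster 17 the Mettl3KO libraries had 22.5, 21.8 and 27.4 CPM, against 23.1, 19.9 and 41.9 CPM in WT. The Mettl3KO values of cluster 17 rest on 16, 15 and 23 cells per library and thus on few UMIs, and no test was made. They overlapped those of WT and were below those of the same libraries in cluster 7.

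Uqcrfs1 followed the same split: 326, 338 and 332 CPM in Mettl3KO cells of cluster 7, and in cluster 17 172.5, 174.0 and 180.7 CPM in Mettl3KO against 195.5, 178.5 and 184.3 CPM in WT. Sdhb was at 177, 164 and 166 CPM in Mettl3KO cells of cluster 7, and in cluster 17 at 240, 254 and 214 CPM in Mettl3KO against 247, 253 and 254 CPM in WT. For both genes the Mettl3KO libraries differed more between the 2 clusters than from WT within cluster 17. Ndufaf4 was at 156, 148 and 163 CPM in Mettl3KO cells of cluster 7, and in cluster 17 at 60.01, 65.2 and 82.1 CPM in Mettl3KO against 115, 89.7 and 87.8 CPM in WT, so that Mettl3KO was the lower there. Mettl3 itself was at 6.7, 8.3 and 6.1 CPM in Mettl3KO cells of cluster 7, and in cluster 17 at 22.5, 29 and 16.4 CPM in Mettl3KO against 24.8, 12.7 and 26.3 CPM in WT, which rests on 10 UMIs in Mettl3KO, too few to place the level of these cells against WT.

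In the HSC/MPP-like clusters, Mettl3KO cells of cluster 5 had 63.5, 60.9 and 62.1 CPM of Ndufaf1, and those of cluster 4 had 26.5, 41.2 and 33.0 CPM, against 28.0, 31.8 and 34.9 CPM in WT cells of cluster 4. Mettl3 was at 9.0, 9.0 and 7.1 CPM in Mettl3KO cells of cluster 5, and in cluster 4 at 16.2, 19.95 and 15.0 CPM in Mettl3KO against 26.5, 31.8 and 24.01 CPM in WT. Sdhb did not follow Ndufaf1 here: it was at 159, 141 and 139 CPM in Mettl3KO cells of cluster 5, and in cluster 4 at 275, 298 and 290 CPM in Mettl3KO against 227, 226 and 241 CPM in WT. Ndufaf4 differed within cluster 4 as well, with 103, 77.1 and 96.1 CPM in Mettl3KO against 63.6, 55.7 and 72.0 CPM in WT. The low values of Sdhb in Mettl3KO HSC/MPP-like cells as a class were therefore those of cluster 5, and within cluster 4 the order was the opposite. Over all 93 members, with no count filter, 38 had all Mettl3KO libraries above all WT libraries in cluster 4 and 1 had them below. In cluster 17 these counts were 8 and 5. The share over all genes was not counted for single clusters, so these counts cannot be read as particular to the members.

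Other classes showed few calls. Basophil and mast progenitor-like cells had 0 of 86 members called by edgeR (13 at an unadjusted p under 0.05, 0 called by DESeq2), beside 0.462% of all genes called, but 83 of 86 were positive, with a median of 0.14, and 29 had all Mettl3KO libraries above all WT libraries (all genes 7.26%). Their summed members were 36300 CPM (35170 to 37080) in Mettl3KO and 33200 CPM (32460 to 33690) in WT, on 55 to 88 cells per Mettl3KO library and 165 to 233 per WT library. B cell markers summed there to 244, 302 and 376 CPM in Mettl3KO, against 113, 68.3 and 80.7 CPM in WT (6 of 7 tested rose); their part in the result was not tested. B cell progenitor-like (0 of 87; 5 unadjusted; 0 by DESeq2; all genes 0.212% up and 0.276% down, 0.488% in all) and dendritic-like cells (0 of 84; 1 unadjusted; 0 by DESeq2; all genes 0.628% up and 0.0589% down, 0.687% in all) had medians of 0.02 and -0.01.

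Cox6b2 was called lower in 3 of the 8 classes, more than any other member. It was uncalled in HSC/MPP-like (log2 fold change -0.27), megakaryocyte progenitor-like (-0.09) and B cell progenitor-like cells (-0.54). Basophil and mast progenitor-like (-0.33) and dendritic-like cells (0.14) gave no call either, nor did sorted HSC (0.05). It fell in erythroid progenitor-like cells to 215, 279 and 293 CPM in Mettl3KO, against 374, 437 and 437 CPM in WT (-0.66 ± 0.11; edgeR adjusted p = 0.0028). In granulocyte progenitor-like cells it fell to 63.1, 62.9 and 77.8 CPM in Mettl3KO, against 90.2, 97.1 and 115 CPM in WT (-0.56 ± 0.11; adjusted p = 0.039). In monocyte progenitor-like cells it fell to 58.5, 65.0 and 63.5 CPM in Mettl3KO, against 77.6, 82.9 and 87.7 CPM in WT (-0.41 ± 0.08; adjusted p = 0.037). Groups did not overlap in these 3 classes. It was the only member called in granulocyte progenitor-like cells (0.205% of all genes rose and 0.215% fell) and monocyte progenitor-like cells (0.422% and 0.361%). The granulocyte call was lost without any of 4 libraries, namely Mettl3KO replicate 1 or 2 and WT replicate 2 or 3, and the monocyte call was lost without any of the 6. In erythroid progenitor-like cells 1 other member was called (3.82% of all genes rose and 2.23% fell): Ndufaf4, with 146, 145 and 126 CPM in Mettl3KO, against 111, 104 and 116 CPM in WT (0.33 ± 0.08; adjusted p = 0.032), lost without Mettl3KO replicate 1 or 2 or WT replicate 1 or 2. The count there was 1 without Mettl3KO replicate 1 or 2 or WT replicate 2, and 4 without Mettl3KO replicate 3. Erythroid markers summed there to 8017 to 10416 CPM in Mettl3KO and 12084 to 13456 CPM in WT (3 of 12 fell), and B cell markers to 156 to 239 CPM in Mettl3KO and 51.8 to 83.8 CPM in WT (8 of 10 tested rose). B cell markers also rose in granulocyte (3 of 9 tested) and monocyte progenitor-like cells (7 of 9). The part of these markers in the results was not tested. Mettl3 had log2 fold changes of -0.39 in erythroid progenitor-like (edgeR adjusted p = 0.055), -0.71 in granulocyte progenitor-like (adjusted p = 0.086) and -0.45 in monocyte progenitor-like cells (adjusted p = 0.16). None of these passed. It fell by 1.47 in HSC/MPP-like cells (adjusted p = 1.9e-04) and 1.39 in megakaryocyte progenitor-like cells (adjusted p = 0.0012). For the classes with 0 calls, Mettl3 is given pooled over the libraries of each genotype, with no test. Basophil and mast progenitor-like cells had 15.6 CPM in Mettl3KO and 21.5 CPM in WT, and dendritic-like cells 8.46 and 12.1 CPM. The B cell progenitor-like clusters 8, 13 and 19 had 15.0, 17.9 and 9.02 CPM in Mettl3KO, against 20.2, 17.7 and 19.4 CPM in WT. The dendritic-like and cluster 19 values rest on few UMIs.

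**Figure D5:**
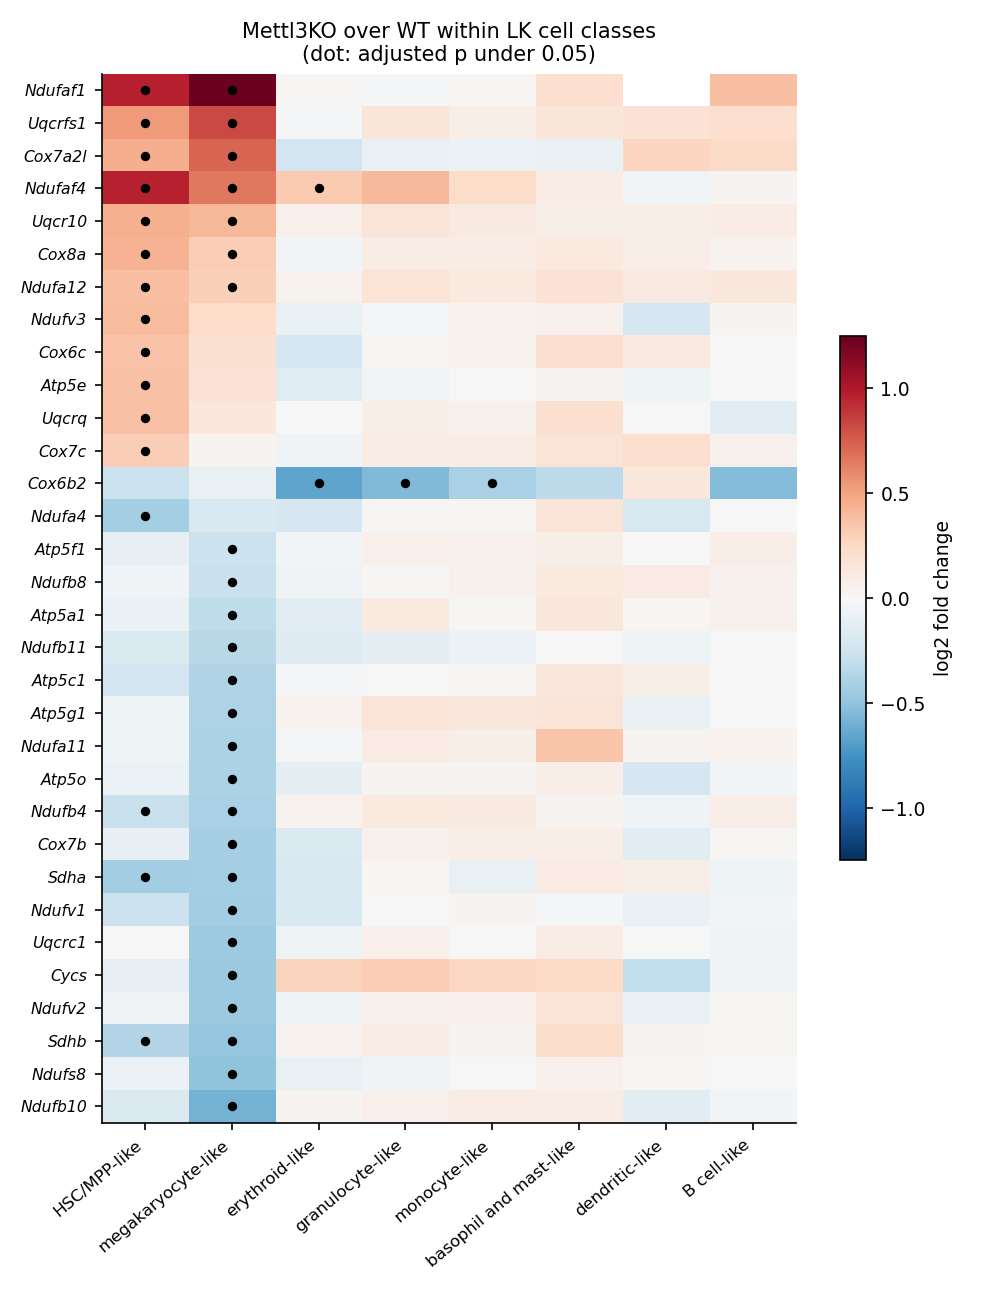
Log2 fold change, Mettl3KO over WT, of the 32 members called in at least 1 LK cell class (rows) in the 8 classes (columns); a dot marks an adjusted p under 0.05 and a blank square a gene below the filter. The upper rows, with Ndufaf1 and Uqcrfs1, and the lower rows, with Ndufb10 and Ndufs8, differ most in the HSC/MPP-like and megakaryocyte-like columns.

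The genes around the chain were counted by list. Of 29 assembly factors outside the member rule, Sco2, which delivers copper to complex IV, and Tmem70, an assembly factor of ATP synthase, rose in Mettl3KO HSC. Of these 29, 0 fell (list median 0.16), beside 3.66% of all genes that rose and 2.49% that fell. Sco2 had 59.1, 75.8 and 92.1 CPM in Mettl3KO HSC, against 44.6, 32.5 and 38.5 CPM in WT HSC (0.97; edgeR adjusted p = 0.0028). Sco2 also rose in MPP2 (0.76), in whole LK, in HSC/MPP-like cells (1.29) and in megakaryocyte progenitor-like cells (1.30). Uqcc3, an assembly factor of complex III, rose in HSC/MPP-like (1.12) and megakaryocyte progenitor-like cells (1.38). In all, 5 of 31 assembly factors rose and 1 (Cox16, -1.07) fell in HSC/MPP-like cells, beside 12.6% and 10.2% of all genes. In megakaryocyte progenitor-like cells 6 of 29 rose and 2 fell, beside 16.4% and 13.3% of all genes.

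The tricarboxylic acid cycle had 0 of 18 genes called in HSC. Idh3g and Idh3b, subunits of isocitrate dehydrogenase, fell in MPP1. Of 17 tested in megakaryocyte progenitor-like cells, 1 rose (Idh2) and 5 fell. Over all genes, 3.66% rose and 2.49% fell in HSC, 4.74% and 3.89% in MPP1, and 16.4% and 13.3% in megakaryocyte progenitor-like cells. Of 20 glycolysis genes, 1 was called in HSC: Ldhb, a lactate dehydrogenase subunit, fell to 36.6, 42.4 and 38.0 CPM in Mettl3KO HSC, against 87.4, 69.1 and 97.8 CPM in WT HSC (-1.12; adjusted p = 0.0084). It also fell in MPP1 (-1.37), MPP2 (-1.32), MPP4 (-2.32), whole LK (-0.96) and HSC/MPP-like cells (-1.33). Regulators of mitochondrial biogenesis had 0 of 15 called in HSC, and mitochondrial antioxidant genes 0 of 10. Of 12 erythroid markers 4 fell in HSC, with a sum of 614.8 to 784.1 CPM in Mettl3KO and 1061 to 1441 CPM in WT, and their part in the HSC values was not tested. Among the mitochondrially encoded genes of HSC/MPP-like cells, mt-Nd1 (0.55) and mt-Nd4l (0.46) rose and mt-Co1 (-0.70), mt-Nd5 (-0.55), mt-Co2 (-0.30) and mt-Co3 (-0.31) fell.

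The member promoters were searched for the 4 motifs over the window of 250 bases before to 50 after the start. RefSeq promoters matched 74 of the 93 genes (79 promoters). The NRF1 motif stood in 16.5% of them, against 2.71% of all 32851 promoters in the table and 4.97% of the 11637 others at least as rich in G and C as the member median of 57.7%. The ETS motif stood in 21.5% of member promoters, against 8.86% of all and 16% of the GC-rich ones. The YY1 motif stood in 11.4%, against 2.75% and 3.77%. The SP1 motif stood in 43.0%, against 35.7% of all but 75.7% of the GC-rich ones, so its share in members was above the first and below the second.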

How the data were processed

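The authors deposited whole-number read counts per gene for the 24 bulk libraries (the table's own name speaks of FPKM, but its values are whole counts with differing totals) and UMI counts per gene and cell for the 6 10x libraries. Per the labels' protocols, bulk RNA was amplified by a SMARTer method and sequenced as paired reads; per the submitters' processing notes, the tools Bowtie, TopHat and Cell Ranger 2.2, and as builds GRCh37 and mm10, are named without their roles. The counting tool and its strand setting were not given in the sources used here. A share of 314 of 15879 bulk genes counted in 8 or more libraries had counts with a common divisor above 1; no member was among them.

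Bulk counts were fitted with edgeR 4.0.16 (R 4.3.3; TMM, filterByExpr, quasi-likelihood test, 8 group means, 16 residual degrees of freedom), and p-values were adjusted by Benjamini-Hochberg over all genes tested. Levels are TMM-adjusted CPM. A called gene has an adjusted p under 0.05. With 3 libraries against 3, a permutation test could not go below 0.1, so single values carry no permutation p. Effects outside edgeR's fit are values with no test.

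Of 24693 cells in the 10x table, 297 with over 10% mitochondrial UMIs were removed. Cells were clustered without the members (scanpy 1.11.5, Leiden; 2000 variable genes, 30 components, 20 neighbours, resolution 1.0) into 23 clusters; 6 clusters with 4082 cells stayed unnamed. The HSC/MPP list and the lymphoid-primed list were pooled for naming after the clusters were seen. UMIs were summed per library and class, and 8 classes, each with 50 or more cells per library, were tested with edgeR. A doublet caller marked 227 cells (0.93%), which were kept. Names were rebuilt here and may differ from the study's.

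Alternatives were DESeq2 1.42.0, upper-quartile factors, no filter, the compared libraries alone, a replicate block, limma 3.58.1 voom weights, removal of length and GC trends, doublets removed, and each library left out; leaving out the 3 libraries of low ribosomal share was added after seeing the data. The fitting steps were tested on simulated data. Promoters came from RefSeq, GRCm38.p6.

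The members, gene lists and marker lists were chosen with earlier results of these data known. Named genes are, per comparison, up to 12 called members of largest change whose groups do not overlap, a list of core subunits, the tissue isoforms, Mettl3, and up to 3 called genes of each other list; the further called members and list genes were added after their values were seen. Proteins were not used here.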

Additional observations from a re-analysis of the deposited data

Results flagged for a closer look

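For several members all Mettl3KO libraries were above all WT libraries in one population and below them in another. Only the lower side passed the test in each case, except Atp5e and Cox6c, where only the higher side passed; the differences between these effects were not tested. In sorted cells, Atp5a1 had a log2 fold change (Mettl3KO over WT) of 0.37 in MPP4 and -0.44 in MPP1, and Uqcrc2 0.18 in MPP4 and -0.53 in MPP1. Mettl3KO MPP1 held the library with high neutrophil markers and that with the lowest ribosomal share.

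Within the 10x classes, 10 members that fell in megakaryocyte progenitor-like cells had all Mettl3KO libraries above all WT libraries in another class, without passing the test there. Against granulocyte progenitor-like cells these were Atp5a1 (0.12 there and -0.32 in megakaryocyte progenitor-like cells), Atp5g1 (0.16 and -0.39), Cycs (0.31 and -0.46) and Uqcrc1 (0.06 and -0.45). Against monocyte progenitor-like cells they were Cox7b (0.08 and -0.42), Ndufb10 (0.09 and -0.59) and Ndufb4 (0.11 and -0.40). Against basophil and mast progenitor-like cells they were Atp5o (0.09 and -0.40), Ndufa11 (0.35 and -0.40) and Sdhb (0.22 and -0.48). Atp5e (0.37) and Cox6c (0.36) rose in HSC/MPP-like cells and had log2 fold changes of -0.15 and -0.22 in erythroid progenitor-like cells, which did not pass.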

How the results depend on the processing

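Over the bulk and 10x comparisons, 93 member calls were made (a gene called in several comparisons counted each time); 34 held under every alternative, 59 were lost under at least 1, and 0 reversed. The numbers of members called moved as follows; the causes were not tested.

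In whole LK, 13 calls became 26 with DESeq2, 8 with upper-quartile factors and 4 with a replicate block, and 2 to 10 with a library left out. In HSC, 3 became 6 without the 3 libraries of low ribosomal share, 17 with length and GC trends removed and 6 with voom weights (3 to 5 with a library left out). In MPP1, 4 became 0 with the compared libraries alone (0 to 14). In MPP2, 1 became 4 with DESeq2, 4 with trends removed and 5 with voom weights. In MPP4, 0 became 2, 6 and 4 under those settings and 1 with the compared libraries alone. For the effect in MPP4 minus HSC, 0 became 2 without the 3 libraries of low ribosomal share, 3 with DESeq2, 3 with trends removed and 4 with voom weights (0 to 3).

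For WT MPP2 over HSC, 2 became 7 with DESeq2, 12 with voom weights and 5 with a replicate block (1 to 3). For WT MPP4 over HSC, 25 became 51 with DESeq2, 65 with voom weights, 41 with the compared libraries alone, 38 with a replicate block and 12 with trends removed (1 to 21). In HSC/MPP-like cells no setting moved the 16 calls by over 1.5 times (11 to 20 with a library left out). Erythroid progenitor-like cells had 2 calls, 6 with no filter and 1 with a replicate block (1 to 4). Granulocyte and monocyte progenitor-like cells had 1 call each, 3 each with no filter, and 0 to 1 and 0 to 0 with a library left out; megakaryocyte progenitor-like cells had 25 (15 to 27).

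Same-numbered libraries of the 2 groups compared had correlations of -0.30 to 0.054 between genotypes. Between WT populations all were positive but small (0.059 to 0.143). The number was not taken as a pairing in the main fit. Whether same-numbered WT populations shared a mouse cannot be told from these values, and the replicate block is given as an alternative. The member median changed sign in MPP1 (-0.25; -0.70 to 0.01), MPP4 (0.04; -0.06 to 0.23), the MPP2 minus HSC contrast (-0.12; -0.33 to 0.13) and dendritic-like cells. The summed level of WT MPP1 was 10069.8 CPM on the TMM scale, 10402.0 CPM on plain totals and 10667.5 CPM on plain totals without Rn45s; that of Mettl3KO MPP4 was 13844.4 CPM on plain totals instead of 14873.4 CPM.

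With 3 mice per group, small differences between populations could not be shown, and an uncalled gene is not shown to be equal. 10x classes of under 100 cells per library gave few counts for low genes, so differences in such genes were not detectable there at this depth.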
